A study of Rattus norvegicus with 2 samples.

Results

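The enzymes of heme synthesis, the heme-degrading enzyme heme oxygenase 1 (Hmox1) and NADPH-cytochrome P450 reductase (Por) were followed in the liver of male rats after an oral load of olive oil. The members were chosen by name, in the order of the pathway: Alas1, Alad, Uros, Urod, Cpox, Ppox and Fech for synthesis, then Hmox1 and Por. They are 9 of the 14217 genes that have a probe set annotated to exactly 1 gene, and they are covered by 11 probe sets. All 9 genes and all 11 probe sets were among those counted as measured (9209 genes), that is, with an average log2 signal no lower than that of the median probe set, which corresponds to a signal of 41.4.

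Total RNA from the liver of male Wistar rats, which are outbred, was hybridized to Affymetrix expression arrays, 1 for rats given olive oil after a fast and 1 for rats that were only fasted. The animals were 2 months old and weighed 250 to 300 g, and all were fasted for 18 h. The olive oil group then received 5 ml of extra virgin olive oil as a bolus, about 16 ml per kg, and was killed 4 h later, while the fasted group received no fat. The labels state neither how many livers stand behind each array nor the hour at which each group was killed, so hour of day, length of fast and oil cannot be told apart. Each group being 1 array, no test could be run. All differences below are between 2 arrays with no replicate check, and a fixed size of 2-fold stands in for a threshold.

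Heme is an iron-bearing ring made partly in mitochondria and partly in the cytosol. Its synthesis starts with glycine and succinyl-CoA, which the mitochondrial enzyme encoded by Alas1 joins, and this step sets the pace of the pathway in liver, where much of the heme goes into cytochromes P450. The reductase encoded by Por sits in the endoplasmic reticulum and passes electrons from NADPH to these P450s, and also to heme oxygenase, which opens the heme ring.

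Alas1 and Por, the entry enzyme and the electron donor, had a several-fold higher signal after olive oil, while no other heme synthesis enzyme reached 2-fold upward. Of the 9 genes, 2 were at least 2-fold higher in the olive oil array, Alas1 and Por, and 1 was at least 2-fold lower, Ppox. The other 6 lay between. Among all measured genes, 3.21% were higher and 2.92% lower by 2-fold or more, together 6.14%. The median log2 difference, olive oil minus fasted, was -0.11 over the 9 genes and -0.01 over all measured genes, so the middle of the group lay close to that of the arrays and its spread came from a few members.

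The starts of Alas1 and Por, the members with the largest differences, are shown as RefSeq gives them, since both genes differed in the same direction. Each run covers 250 bases before the gene's start and 50 from it on, on the coding strand. Capitals in Alas1 mark the letters of the core site of NRF1, a factor of nuclear genes for mitochondrial proteins (GCATGCGC), and of the short form of a cyclic AMP response element (TGACG). Capitals in Por mark AGGTCA, a single repeat of the sites of nuclear receptors, here on the other strand. The Alas1 run lies at chr8:115768593-115768892 and the Por run at chr12:26635760-26636059, both on the minus strand of GRCr8.
Alas1: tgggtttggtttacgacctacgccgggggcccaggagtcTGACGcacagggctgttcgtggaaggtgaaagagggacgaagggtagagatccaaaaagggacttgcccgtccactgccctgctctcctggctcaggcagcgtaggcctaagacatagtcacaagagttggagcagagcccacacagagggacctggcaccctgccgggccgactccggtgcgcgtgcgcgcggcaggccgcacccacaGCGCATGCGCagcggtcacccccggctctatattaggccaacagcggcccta
Por: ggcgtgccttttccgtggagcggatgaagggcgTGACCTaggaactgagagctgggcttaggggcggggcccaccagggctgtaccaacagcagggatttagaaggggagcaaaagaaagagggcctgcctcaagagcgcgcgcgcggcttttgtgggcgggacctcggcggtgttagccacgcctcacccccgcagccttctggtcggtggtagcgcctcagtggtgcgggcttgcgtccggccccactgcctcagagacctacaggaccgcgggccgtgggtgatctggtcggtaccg

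The NRF1 core letters occurred in Alas1 on both strands as a pair of overlapping matches, at bases 249 to 256 and 251 to 258 of the window, which straddle the start of the gene. Among all 33469 promoter windows, searched on both strands, 2.47% held this core. Promoters were listed for 7 of the 9 genes, all but Cpox and Hmox1, and Alas1 was the only 1 of the 7 with the NRF1 core. The letters TGACG occurred in Alas1 and Ppox, against 21.2% of all windows, and the full element TGACGTCA, which contains it, in none of the 7, against 1.83%. The GC box GGGCGG was found in 5 of the 7 windows, those of Alad, Urod, Ppox, Fech and Por, against 33.1% of all windows. AGGTCA was found in Por alone, against 16.2%, and the FOXO letters GTAAACA in Urod alone, against 3.78%. TGTTCT, a single arm of the glucocorticoid receptor's site, whose full letters were not searched, was in none of the 7, against 20.7% of all windows, and the antioxidant response letters TGACNNNGC were also in none, against 12.1%. Of the 2 genes that were higher in the olive oil array, Alas1 had 64.0% G and C in its window and Por 66.3%, where the median of all windows was 51.7%. Alad and Fech, which were not higher, had 66.3% and 66.0%, and the lowest of the 7 was Urod at 53.7%. These matches describe letters in a short window and do not show that a factor was bound there.

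Alas1 encodes 5-aminolevulinate synthase 1, the form of the first enzyme that liver and most other tissues use. Its probe set, 1367982_at, had a signal of 5993 in the olive oil array and 1578 in the fasted array. This was 3.80-fold higher after olive oil, a log2 difference of 1.93. Alas1 ranked 44 of 9209 measured genes from the highest difference down, and 0.738% of measured genes had a difference of this size or larger in either direction. Only this probe set stands for the gene, so no second one could be compared with it. The measured genes with the log2 difference closest to that of Alas1 over the 2 arrays were Stat3, a transcription factor of cytokine signalling, at 1.93, Thbd, the thrombin receptor thrombomodulin, at 1.95 and Rhbdd2 at 1.87.

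**Figure D1:**
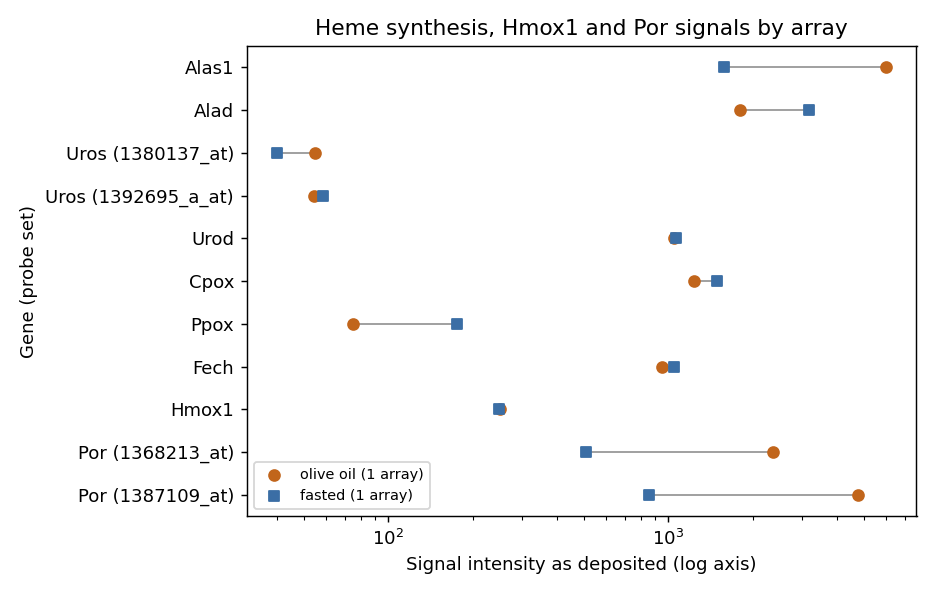
Signal intensity as deposited (log axis) of each of the 11 probe sets in pathway order from the top, with the olive oil array as circles and the fasted array as squares, 1 array each. The widest gaps are those of Alas1, Ppox and both probe sets of Por; levels of different probe sets cannot be set against each other.

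The erythroid form of the same enzyme, Alas2, which red cell precursors use, had a signal of 180.7 in the olive oil array and 241.8 in the fasted array. Its log2 difference was -0.42, on the other side of 0 from that of Alas1. The beta globin gene Hbb stood at 8852 in the olive oil array and 9091 in the fasted array, which points to erythroid RNA on both. Its single probe set carries an Affymetrix suffix for probes that may match other transcripts too. In such bulk RNA, fewer cells of a type and less RNA per cell cannot be told apart. Of the 11 erythroid markers, 6 had a probe set with 1 gene and 2 were measured, Hbb and Alas2. The 6 summed to a signal of 9109 in the olive oil array and 9403 in the fasted array, nearly all of it from Hbb. Slc4a1, at 30.2 in the olive oil array and 20.1 in the fasted array, and Ahsp, at 41.7 and 39.1, were not measured. Epb42 and Klf1 lay below the floor of 12.8 on both.

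Alad encodes 5-aminolevulinate dehydratase, the cytosolic enzyme of the second step, which joins a pair of aminolevulinate molecules into porphobilinogen. Its signal was 1807 in the olive oil array and 3191 in the fasted array, 1.77-fold lower after olive oil. Alas1 and Alad, successive steps of the pathway, thus stood on opposite sides of 0, at 1.93 and -0.82. Of measured genes, 10.1% were lower and 9.44% higher by 1.5-fold or more in the olive oil array, and at this size Alad joined Ppox among the members that were lower.

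Uros, uroporphyrinogen III synthase, which closes the ring, was dim on both of its probe sets. The first, 1392695_a_at, had a signal of 54.3 in the olive oil array and 58.7 in the fasted array. The second, 1380137_at, had 54.8 in the olive oil array and 40.1 in the fasted array. The log2 differences were -0.11 and 0.45, of opposite sign, so that the data give no direction for this gene. Urod, uroporphyrinogen decarboxylase, the last cytosolic step, was nearly equal at 1049 in the olive oil array and 1063 in the fasted array, a log2 difference of -0.02.

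Back in the mitochondrion, Cpox, coproporphyrinogen oxidase, had a signal of 1233 in the olive oil array and 1492 in the fasted array, a log2 difference of -0.27. Ppox, protoporphyrinogen oxidase, the step before the last, had the lowest difference of the 9 genes. Its signal was 75 in the olive oil array and 176.5 in the fasted array, 2.35-fold lower after olive oil, a log2 difference of -1.23. It ranked 141 of 9209 measured genes from the lowest difference up. Its single probe set, 1377079_a_at, carries an Affymetrix suffix for probes shared between several transcripts, and no second probe set was at hand. Under a filter at the 75th percentile of mean log2 signal Ppox was no longer measured. Genes with a nearly equal log2 difference over the 2 arrays were Gatm, an enzyme of creatine synthesis, at -1.24, Bmf, a cell death regulator of the BCL2 family, at -1.24 and Pclaf at -1.24.

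Fech, ferrochelatase, which inserts the iron and so completes heme, had a signal of 950.5 in the olive oil array and 1049 in the fasted array, a log2 difference of -0.14. Taking the 7 synthesis enzymes together, Alas1 had a positive and the other 6 a negative log2 difference on the brightest probe set, with a median of -0.14. Without Alas1 the 6 ranged from -1.23 to -0.02, with a median of -0.21. Among all measured genes, 48.3% had a positive log2 difference. The signs of Uros and Urod turned with the probe set or the scaling, so the split of signs is no firm trait of the pathway. The 4 mitochondrial enzymes, Alas1, Cpox, Ppox and Fech, held the highest and the lowest value of the pathway, and the 3 cytosolic ones, Alad, Uros and Urod, ran from -0.82 to -0.02. The 25th and 75th percentiles of all measured genes were -0.28 and 0.24, and between them lay Cpox, Fech, Uros and Urod.

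Hmox1, the inducible heme oxygenase, was level between the arrays, at 250.9 after olive oil and 249.2 in the fasted array, a log2 difference of 0.01. The gene is also expressed by liver macrophages, which take up old red cells. All 6 measured macrophage markers of the 8 listed lay within 1.5-fold, where 19.5% of all measured genes were past it. Their median was 0.02, and the summed signal was 4089 in the olive oil array and 4002 in the fasted array. The constitutive form, Hmox2, had 742.5 in the olive oil array and 569.0 in the fasted array, a log2 difference of 0.38.

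Por had the highest difference of the 9 genes and agreed in direction on its 2 probe sets. The brighter, 1387109_at, had a signal of 4740 in the olive oil array and 854.7 in the fasted array, 5.55-fold higher. The other, 1368213_at, had 2358 in the olive oil array and 509.1 in the fasted array, 4.63-fold higher. The log2 differences of 2.47 and 2.21 were 0.26 apart. Measured probe sets of 1 gene had a pooled standard deviation of 0.35 around their gene's mean over 2290 genes. This scatter covers probe error and not variation between rats. A gap between 2 values with this scatter carries a standard deviation of 0.49, and 0.26 lay below it. Por ranked 18 of 9209 measured genes from the highest difference down, and 0.282% had a difference of this size or larger in either direction. Closest to it in log2 difference over the 2 arrays were Coq10b, a coenzyme Q binding protein gene, at 2.48, Ogfrl1 at 2.49 and Ces2c, a carboxylesterase gene, at 2.45.

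**Figure D2:**
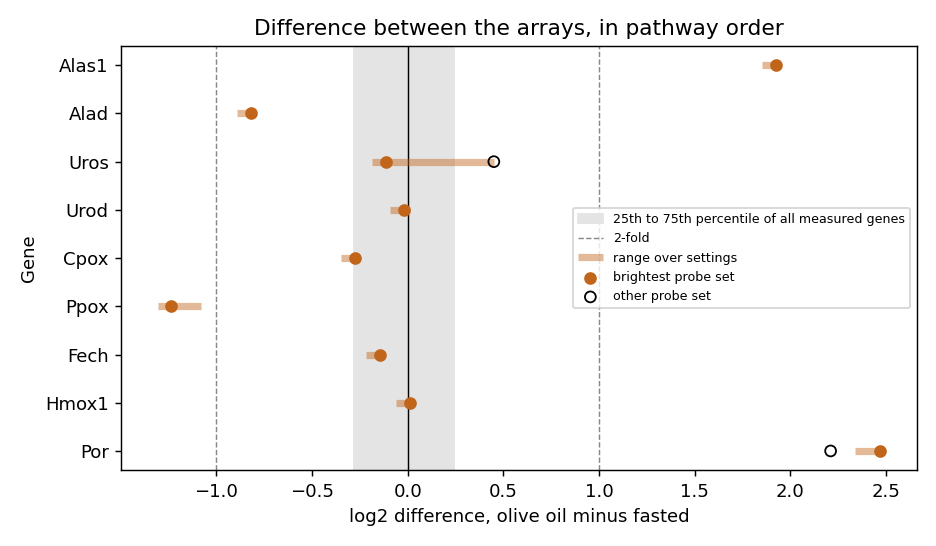
Log2 difference, olive oil minus fasted, of each gene in pathway order from the top, with filled points for the brightest probe set, open points for the other probe set, bars for the range over processing settings, a grey band from the 25th to the 75th percentile of all measured genes and dashed lines at 2-fold. Por and Alas1 lie to the right of 2-fold and Ppox to the left under every setting drawn, and the bar of Uros crosses 0.

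Ordered by log2 difference, the genes ran Por, Alas1, Hmox1, Urod, Uros, Fech, Cpox, Alad and Ppox. If 2 genes each carry the probe scatter of 0.35, the gap between them carries 0.49, which is a standard deviation and not a cut-off. The gap of 1.92 between Alas1 and Hmox1 was far above this, and those of 0.55 between Por and Alas1 and of 0.55 between Cpox and Alad were slightly above it. On its other probe set Por stood at 2.21, nearer to Alas1 at 1.93. The gap between Por and Alas1 thus depends on the probe set. Between Alad and Ppox the gap was 0.41, and from Hmox1 to Cpox the widest gap between neighbours was 0.13, both below 0.49. Gaps of 0.55 and 0.41 lie too near this scatter to call neighbours different or alike.

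**Figure D3:**
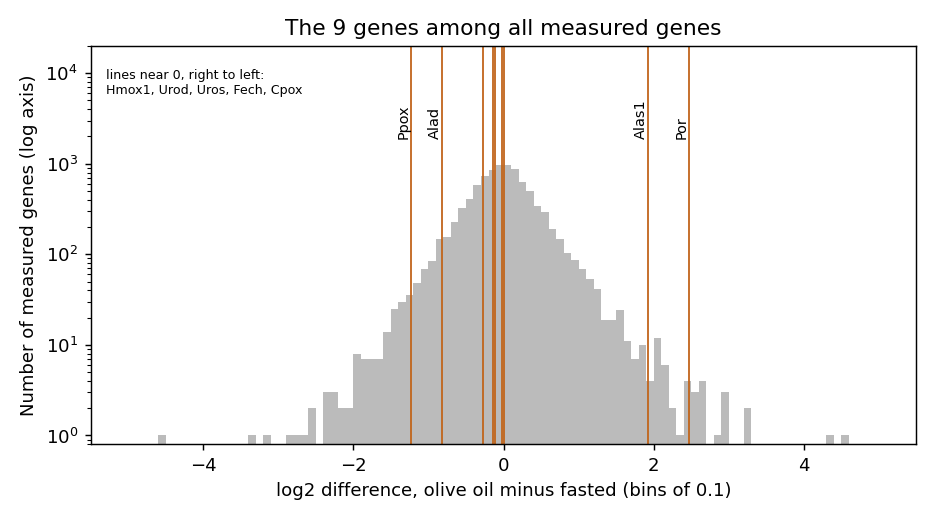
Number of measured genes (log axis) by log2 difference, olive oil minus fasted, in bins of 0.1, over 9209 genes, with a vertical line at each of the 9 genes. Por and Alas1 stand in the sparse right tail, Ppox and Alad on the left slope and the other 5 near the peak.

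None of the measured genes that supply or carry heme and its precursors differed by as much as Alas1. Of 19 listed partners, which include carriers for glycine, iron and porphyrins and heme chaperones, 16 had a probe set with 1 gene and all 16 were measured. None reached 2-fold upward and 1 was past 2-fold downward, against 3.21% and 2.92% of all measured genes. Within 1.5-fold lay 15, where 19.5% of all measured genes were past it, and the median log2 difference was -0.14. The 1 past 2-fold was Flvcr2, a transporter of the heme exporter family, at 28.8 in the olive oil array and 61.9 in the fasted array, a dim probe set. Pgrmc2, a heme chaperone, differed by -0.43 and Slc25a28, mitoferrin 2, which brings iron into mitochondria, by 0.44.

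For heme breakdown and the fate of its iron, 6 of 10 listed genes were measured, with a median of -0.08. Past 1.5-fold was 1 of the 6, where 19.5% of all measured genes were. This was Slc40a1, ferroportin, the iron exporter, at 765.7 in the olive oil array and 1182 in the fasted array, 1.54-fold lower, and its 3 probe sets ran from -1.24 to -0.63. Blvrb, a biliverdin reductase, differed by -0.21.

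Factors described as regulators of Alas1 or Hmox1 differed in both directions. Of 17 measured genes in the list of 18, 6 were higher and 2 lower by 1.5-fold or more, 9 lay between, and the median was 0.13. Over all measured genes, 9.44% were higher and 10.1% lower by this size. Ppargc1a, the coactivator PGC-1 alpha, which induces Alas1 in fasted mouse liver, had a signal of 164.2 in the olive oil array and 35.0 in the fasted array, a log2 difference of 2.23. Its measured probe sets stood at 2.23 and 2.27. The fasted signal of 35.0 lay below the filter level of 41.4, which the average over both arrays passed through the olive oil value. Nr1d1, REV-ERB alpha, a clock repressor and heme sensor, had 366.7 in the olive oil array and 206.9 in the fasted array, 1.77-fold higher. Nr1i3, the drug-sensing receptor CAR, which induces Alas1 and P450 genes, had 379.1 in the olive oil array and 743.4 in the fasted array, 1.96-fold lower. Nfe2l2, the factor NRF2 that drives Hmox1 under oxidative stress, had 842.9 in the olive oil array and 1779 in the fasted array, 2.11-fold lower. The part of these factors in the differences of Alas1, Hmox1 and Por was not tested.

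The list of electron transfer partners held mostly microsomal P450s, which take electrons from the reductase, together with cytochrome b5, its own reductase Cyb5r3 and the separate mitochondrial carrier Fdx1. Of 29 listed genes, 23 were measured. By 2-fold or more, 1 was higher and 1 lower, against 3.21% and 2.92% of all measured genes. Within 1.5-fold lay 19, and the median over the 23 was -0.11. As 19.5% of all measured genes were past 1.5-fold, this count was near the background. The 1 higher was Sqle, squalene epoxidase, with 249.4 in the olive oil array and 83.0 in the fasted array, and the 1 lower was Dhcr7, the last reductase of cholesterol synthesis, with 260.5 in the olive oil array and 764.8 in the fasted array. Cyp8b1, the sterol 12-hydroxylase of bile acid synthesis, differed by -0.62. Cyb5a, cytochrome b5, a second electron carrier of the same membrane, was level at 11865 in the olive oil array and 11315 in the fasted array, and its own reductase Cyb5r3 differed by -0.39.

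Other hemoproteins, respiratory chain subunits and factors that build heme a or attach heme to cytochrome c were measured for 14 of 17 listed genes. None was 2-fold apart, against 6.14% of all measured genes. By 1.5-fold or more, 3 were higher and 1 was lower, against 9.44% and 10.1% of all measured genes, and the median over all 14 was 0.17. Hccs, the enzyme that attaches heme to cytochrome c, differed by 0.76, Nos3, the endothelial nitric oxide synthase, by 0.68 and Cox15, of heme a synthesis, by -0.61. The 6 measured hepatocyte markers all lay within 1.5-fold, where 19.5% of all measured genes were past it. Alb had 17984 in the olive oil array and 17154 in the fasted array. The signals of the 6 ran from 10739 to 18920 in the olive oil array and from 11415 to 18306 in the fasted array. They thus lay near the top of the range, as the highest signals of all were 20497 and 21843. Among them Fgb differed by 0.30, Cps1 by -0.09 and Apoa1 by -0.09, and among macrophage markers Adgre1 differed by -0.39, Cd163 by 0.32 and Cd5l by -0.29.

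**Figure D4:**
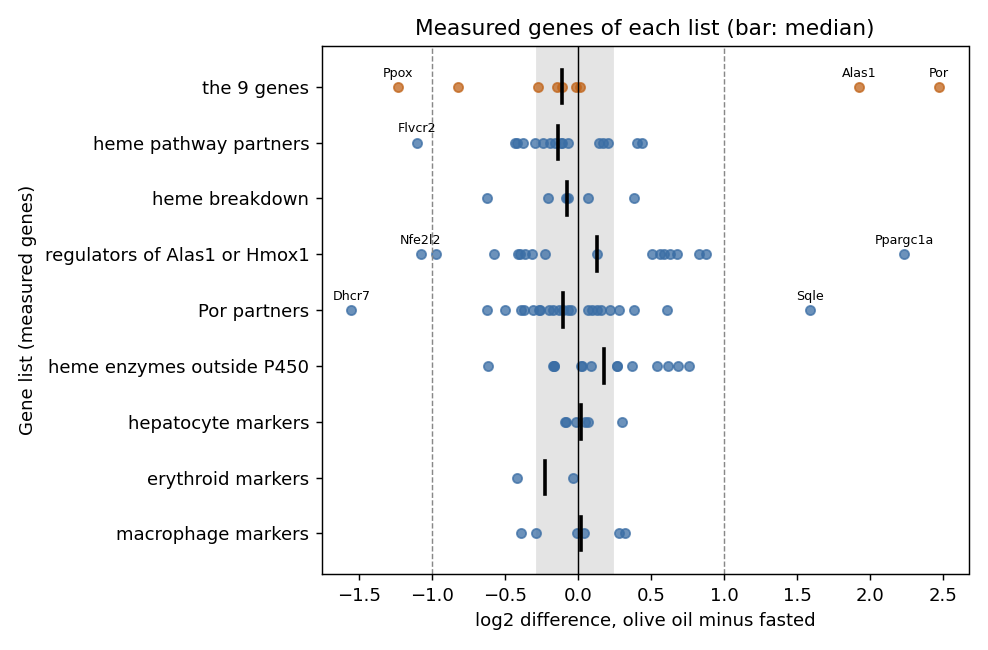
Log2 difference, olive oil minus fasted, of every measured gene of the 9 genes and of each other list, 1 point per gene on its brightest probe set, with a black bar at the list's median, a grey band from the 25th to the 75th percentile of all measured genes and dashed lines at 2-fold. The medians lie between -0.23 and 0.17, and only the genes past 2-fold are named.

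The arrays themselves were alike in scale. The mean signal after trimming 2% at each end was 200.1 on both, the medians were 44.7 in the olive oil and 42.5 in the fasted array, and the control transcripts added before hybridization ran from -0.18 to 0.18 in log2 difference. Of 12 probe sets for poly-A transcripts spiked in ahead of labelling, 10 had a negative log2 difference, and the 12 ran from -0.69 to 0.49 around a median of -0.20. Their part in the differences of the 9 genes was not tested.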

How the data were processed

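Liver RNA was measured on 2 arrays, 1 per group, with groups taken from the sample titles. The deposited values are 1 linear signal intensity per probe set. Affymetrix Expression Console is named per the submitters' processing notes; algorithm and settings: not given in the sources used here. Equal trimmed means point to a scaling before deposit, which assumes that most transcripts do not shift. There were no detection calls, and the number of arrays limits the precision.

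The 57 control probe sets were left out of the gene values. Signals of the other 31042 below their 25th percentile (12.8) were raised to it before log2, with no further normalization, and 15521 probe sets passed the filter on dim values. Symbols came from the platform annotation for the 20826 probe sets with 1 gene (436 had several), of which 20758 were updated by gene ID through RefSeq GRCr8. The brightest probe set stood for a gene. Promoter letters came from RefSeq, build GRCr8. The functions were tested on simulated data.

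The members, the 8 other lists and the alternatives were chosen with earlier results of these data known. Named genes were all members, up to 3 measured genes of largest difference per list, regulators and partners fixed by name whatever their change, and the 3 nearest genes of each 2-fold member. Python 3.11.15, numpy 2.4.6, pandas 2.3.3 and matplotlib 3.10.9 were used.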

Additional observations from a re-analysis of the deposited data

How the results depend on the processing

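The scaling (centred on medians, quantile), the floor (none, 50th percentile, or 16 added instead), the dim filter (none, 75th percentile), the choice of probe set (mean of all, or shared-transcript ones dropped) and the fold (1.5 and 3) were each changed in turn. Alas1 stayed between 1.85 and 1.93 and Por between 2.34 and 2.47 on the log2 scale under the 9 alternatives to the processing, and both were past 3-fold. Ppox stayed between -1.31 and -1.08 under the 7 that kept it. It was lost under the filter at the 75th percentile, and without shared-transcript probe sets, since its only probe set is of that kind, and it was not past 3-fold, so that 2 members remained in each of these cases. At 1.5-fold there were 4. Alad stayed between -0.89 and -0.81, Cpox between -0.35 and -0.26 and Fech between -0.22 and -0.13. Signs near 0 turned: Uros was 0.17 with the mean of its probe sets and 0.45 without the shared-transcript one, Urod was 0.01 after quantile normalization and Hmox1 -0.06 with centred arrays. The median of the synthesis enzymes ran from -0.22 to -0.08. Centring moved the median of all measured genes to -0.09 and their split past 2-fold to 245 higher and 330 lower, against 296 and 269 without it. Of measured genes, 10.4% were past 2-fold with no filter and 4.31% with the offset, against 6.14%. No paired analysis was possible because each group is 1 array.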

Other observations

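Clock genes, picked after earlier results of these data were known, differed in both directions. Dbp, a factor of the PAR bZIP family that controls Alas1 and Por in mouse liver, had a signal of 123.9 in the olive oil array and 43.0 in the fasted array, a log2 difference of 1.53. Its relatives Tef and Hlf differed by 0.41 and -0.04, and Nfil3, a repressor that binds the same kind of site, by -0.23. Per3 differed by 1.26, with a fasted signal of 37 that lay below the filter level of 41.4. Per2 differed by -0.41 and Bmal1, an activator of the clock, by -0.97. Per1 had a signal of 80.5 in the olive oil array and 7 in the fasted array, the fasted value lying under the floor of 12.8, and did not count as measured. Since the hour of killing is not stated, the part of time of day in the differences of Alas1 and Por was not tested.

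Cyp26a1, a P450 that clears retinoic acid with electrons from Por, was among the listed electron transfer partners. It is named here because it was picked after its values were seen. It had a signal of 109.4 in the olive oil array and 3.4 in the fasted array, the fasted value lying below the floor of 12.8, and its mean did not reach the filter for measured genes.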
